A study of Homo sapiens with 22 samples.

Results

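The genes of transport inside the primary cilium were followed in HT1080 cells, a human fibrosarcoma line, across all 6 groups of a study of inactive lysine deacetylases. They were 31 of the 60675 genes in the deposited table and were picked by name, by a rule that holds no measured value. All 31 had a row, and all are annotated as protein-coding. The groups were untreated wild-type (WT) cells (4 libraries), 3 mutant lines without treatment (4 libraries each) and WT cells treated for 2 days with 1 µM Tubastatin A or 5 µM PCI-34051 (3 libraries each). KDAC6H216A and KDAC6H611A carry a histidine-to-alanine change in the first or the second catalytic domain of KDAC6, encoded by HDAC6, and KDAC8H143A carries such a change in KDAC8, encoded by HDAC8. Edited cells were grown up from single colonies, and the KDAC6H216A cells were a pool of 3 cell lines derived separately. The number of clones behind each of the other lines is not given in the sources used here, and KDAC8H143A also holds an unintended insertion of a single G in an intron. Tubastatin A is used as an inhibitor of KDAC6 and PCI-34051 as an inhibitor of KDAC8. Both were compared with untreated cells, no vehicle control is given in the sources used here, and all groups were grown in MEM with serum.

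The primary cilium is a single antenna of microtubules that a cell grows from its older centriole when it leaves the division cycle and takes down again before it divides. Intraflagellar transport (IFT) trains carry cargo along it. Kinesin-2 motors with IFT complex B move outward, dynein-2 motors with IFT complex A move back, and the BBSome couples membrane proteins to the trains. KDAC6 removes acetyl groups from tubulin and is known to promote disassembly of the cilium, which is the question these comparisons bear on here, at the level of RNA only.

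Total counts per library ran from 5248960 to 17170493 in WT cells and the mutant lines and from 24315844 to 29862658 in treated cells. The libraries also differed in mitochondrial rRNA, which took 20.8% to 23.9% of counts in WT cells, 0.195% in KDAC6H216A replicate 1, 0.173% in KDAC6H611A replicate 4, 37.98% in KDAC6H611A replicate 2 and at most 0.0259% in KDAC8H143A and treated cells. Depth and rRNA content cannot be told apart from the treatment or from the KDAC8H143A line. Every member had more than 3 counts in every library, except IFT27 with 3 counts in KDAC6H216A replicate 4. Of 14 fibroblastic markers none was at 0 throughout a group, and their summed level ran from 5012 to 12980 CPM (counts scaled to the size of the library), with 8 of 13 tested higher and 2 lower with Tubastatin A, 7 and 3 of 13 with PCI-34051 and 1 and 7 of 14 in KDAC8H143A (0 and 12 after a correction for GC content and length). Of all genes tested, 29.3% were higher and 28.6% lower with Tubastatin A, and 25.5% and 25.6% with PCI-34051. In KDAC8H143A these shares were 31.6% and 26.9% (27.4% and 20.7% after that correction). The 12 epithelial markers summed to 212 to 478 CPM and the 10 immune markers to 19.7 to 109 CPM, and only 3 and 2 of them could be tested against WT cells. The epithelial keratins KRT8 and KRT18 were higher with Tubastatin A (0.67 and 0.24 on the log2 scale), with PCI-34051 (0.58 and 0.21) and in KDAC8H143A (0.72 and 0.69). Both calls in KDAC8H143A were lost with that correction (0.12 and 0.25), and KRT18 with PCI-34051 passed in 3 of 7 fits that left out a library. HDAC6 RNA was lower in KDAC6H216A (6.25, 5.85, 5.88 and 7.45 CPM) than in WT cells (9.71, 16.9, 16.3 and 13.9 CPM), at -1.25 ± 0.18, edgeR adjusted p = 0.0054, with adjusted p of 0.0182 to 0.0316 when WT replicate 2, 3 or 4 or KDAC6H216A replicate 2, 3 or 4 was left out. In the other comparisons with WT cells the log2 fold change of HDAC6 lay between -0.10 and 0.26 and that of HDAC8 between -0.08 and 0.03, none past the threshold. With the correction for GC content and length, HDAC6 was past it in KDAC8H143A and lower (-0.51, edgeR adjusted p = 0.0079). A change of 1 codon cannot be checked from counts per gene.

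In WT cells all 31 genes were expressed, over a wide range of levels. Per kilobase of exon, the highest were IFT20 at 10.2 ± 1.05 CPM per kb (SD, n = 4), IFT57 at 10.2 ± 1.22 and DYNC2H1, the dynein-2 motor chain, at 9.66 ± 0.44. These 3 neighbours did not differ beyond their SD, and KIF3B, a kinesin-2 motor subunit, followed at 7.58 ± 0.83. The lowest were BBS9 at 0.375 ± 0.078 CPM per kb and IFT27, a small GTPase of complex B, at 0.242 ± 0.064. IFT27 thus rested on 11 to 17 counts per WT library. Subunits of 1 complex stood far apart, since IFT20 and IFT27 are the first and the last of the order and both belong to complex B. From IFT74 (1.72 CPM per kb) down to BBS12 (0.868) no neighbour differed from the next by more than 1 SD.

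**Figure D1:**
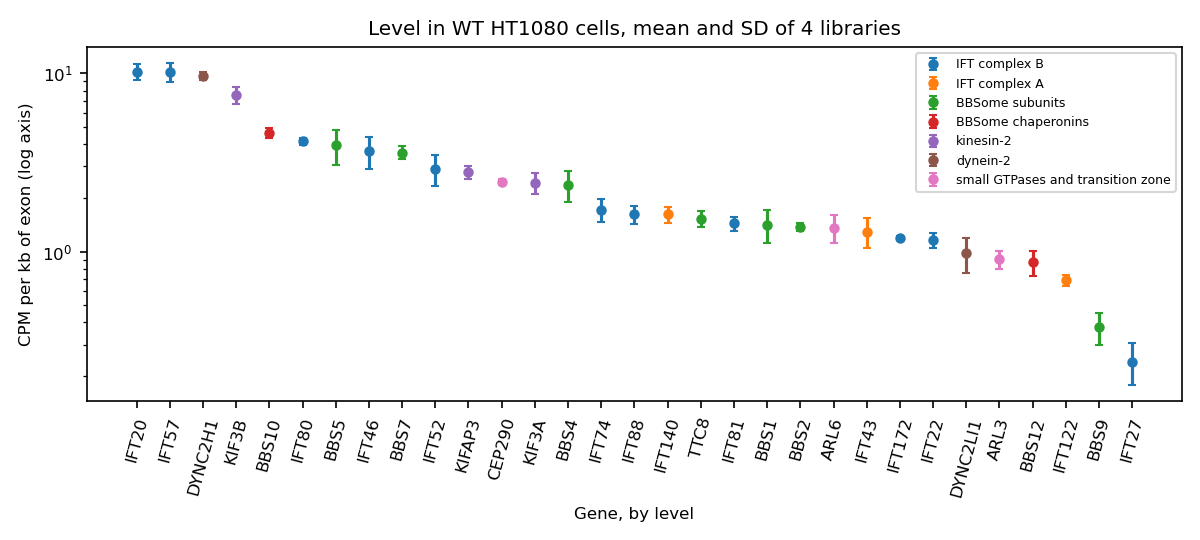
Mean level of each cilium transport gene in the 4 WT libraries, in CPM per kilobase of exon on a log axis, with bars for the SD and colours for the complex. IFT20, IFT57 and DYNC2H1 stand near 10 CPM per kb, and BBS9 and IFT27 lie below 0.4.

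With either inhibitor most of these genes were higher than in WT cells. After Tubastatin A 18 of 31 were higher and 2 lower, where 29.3% of all 15246 genes tested were higher and 28.6% lower. After PCI-34051 17 were higher and 3 lower, beside 25.5% and 25.6% of 15346 genes. The median log2 fold change over the 31 genes was 0.47 and 0.44, against -0.0029 and -0.0071 over all genes. Both comparisons use the same 4 WT libraries, so their likeness is no independent evidence. In bulk RNA, a change in the share of cells with a cilium and a change of these RNAs per cell cannot be told apart. The threshold was an adjusted p below 0.01 in edgeR's quasi-likelihood test (Benjamini-Hochberg over all genes tested). When libraries were scaled by total count only, the median of all genes moved to 0.35 and 0.38 and the counts to 27 higher and 1 lower (all genes 51.9% and 12.1%) and to 25 higher and 0 lower (51.4% and 9.62%), while the members' median still lay 0.47 and 0.45 above that of all genes. Fitting all 6 groups together left 13 higher and 1 lower with Tubastatin A (all genes 16.2% and 8.71%). With PCI-34051 it left 11 higher and 0 lower (14.6% and 8.88%). A correction for the GC content and length of the transcripts gave 17 higher and 5 lower with Tubastatin A (27.3% and 30% of all genes) and 14 higher and 4 lower with PCI-34051 (24.2% and 27.3%). The 31 genes summed to 609 to 649 CPM in WT libraries, 788 to 793 with Tubastatin A, 734 to 781 with PCI-34051 and 542 to 614 in KDAC8H143A.

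In KDAC8H143A the genes moved in both directions, 5 higher and 13 lower, beside 31.6% higher and 26.9% lower of 16101 genes. The members' median was -0.49 against 0.076 over all genes. This balance changed when base composition was taken into account. The 5 genes that were higher had a GC content of 49.5% to 59.97%, and the 13 that were lower one of 35.4% to 48.9%. Across all 15897 genes with a GC value the log2 fold change rose with GC content (Spearman's rho = 0.594), and over the 31 members rho was 0.502, across genes, which are not independent replicates. The same correction gave 9 higher (IFT80, IFT81, IFT172, IFT140, BBS1, BBS5, BBS9, KIF3A and DYNC2H1) and 4 lower (IFT20, IFT22, IFT57 and BBS10), with 27.4% and 20.7% of all genes in those directions, and medians of 0.11 for members and all genes alike. The total count only gave 6 higher and 5 lower (40.3% and 15.5% of all genes) around an all-gene median of 0.36. The cilium transport genes have a median GC content of 43.4%, the genes tested here 48.7%.

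**Figure D2:**
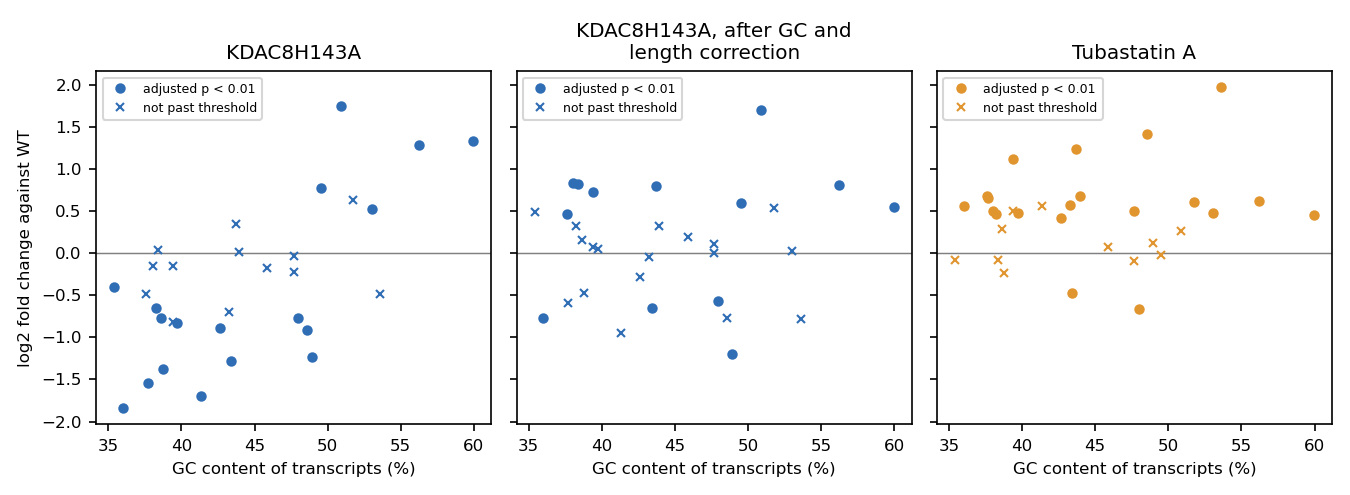
Log2 fold change against WT cells (vertical axis) and GC content of the transcripts in percent (horizontal axis) for the 31 cilium transport genes in KDAC8H143A, in KDAC8H143A after the GC and length correction, and with Tubastatin A. Filled points passed an adjusted p of 0.01 and crosses did not. In KDAC8H143A rho was 0.502 before and 0.00726 after the correction, and with Tubastatin A it was 0.0484 without it.

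In KDAC6H216A none of the 31 genes passed the edgeR threshold, beside 0.214% of 14500 genes higher and 0.621% lower. DESeq2 also called 0, and 1 (IFT27, lower) had an unadjusted p below 0.05. Without replicate 1, the library with little mitochondrial rRNA, 5 were lower (IFT20, IFT27, IFT81, BBS5 and CEP290), with log2 fold changes from -1.499 for IFT27 to -0.36 for CEP290, beside 12.2% of genes higher and 13.8% lower. In KDAC6H611A IFT27 and IFT140 were higher and none lower, beside 6.08% and 6.24% of 14725 genes. Without KDAC6H611A replicate 2, the library with the most mitochondrial rRNA, KIF3B also rose, by 0.38, and IFT88 (-0.77) and CEP290 (-0.41) were lower, beside 9.58% of genes higher and 9.83% lower. The total count only moved the all-gene median to 0.17 in KDAC6H216A, with 0 members called.

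**Figure D3:**
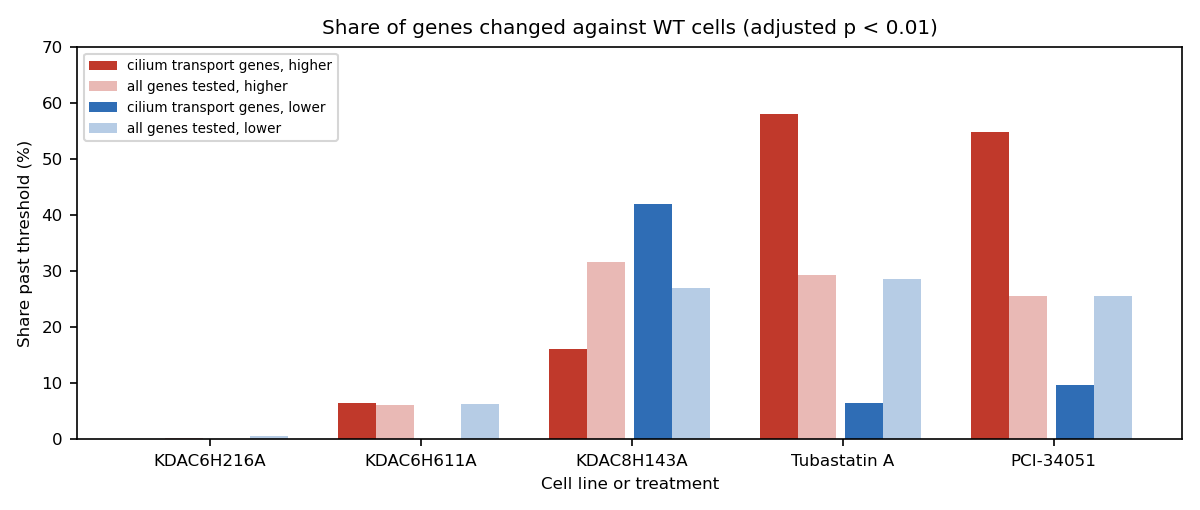
Share of genes past an adjusted p of 0.01 against WT cells, in percent, for the cilium transport genes (full colour) and all genes tested (pale), higher in red and lower in blue. With the inhibitors 58.1% and 54.8% of the cilium genes were higher against 29.3% and 25.5% of all genes, and with the total count only these shares of members were larger; in KDAC8H143A 41.9% were lower, a balance that turned to 9 higher and 4 lower with the GC and length correction.

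**Figure D4:**
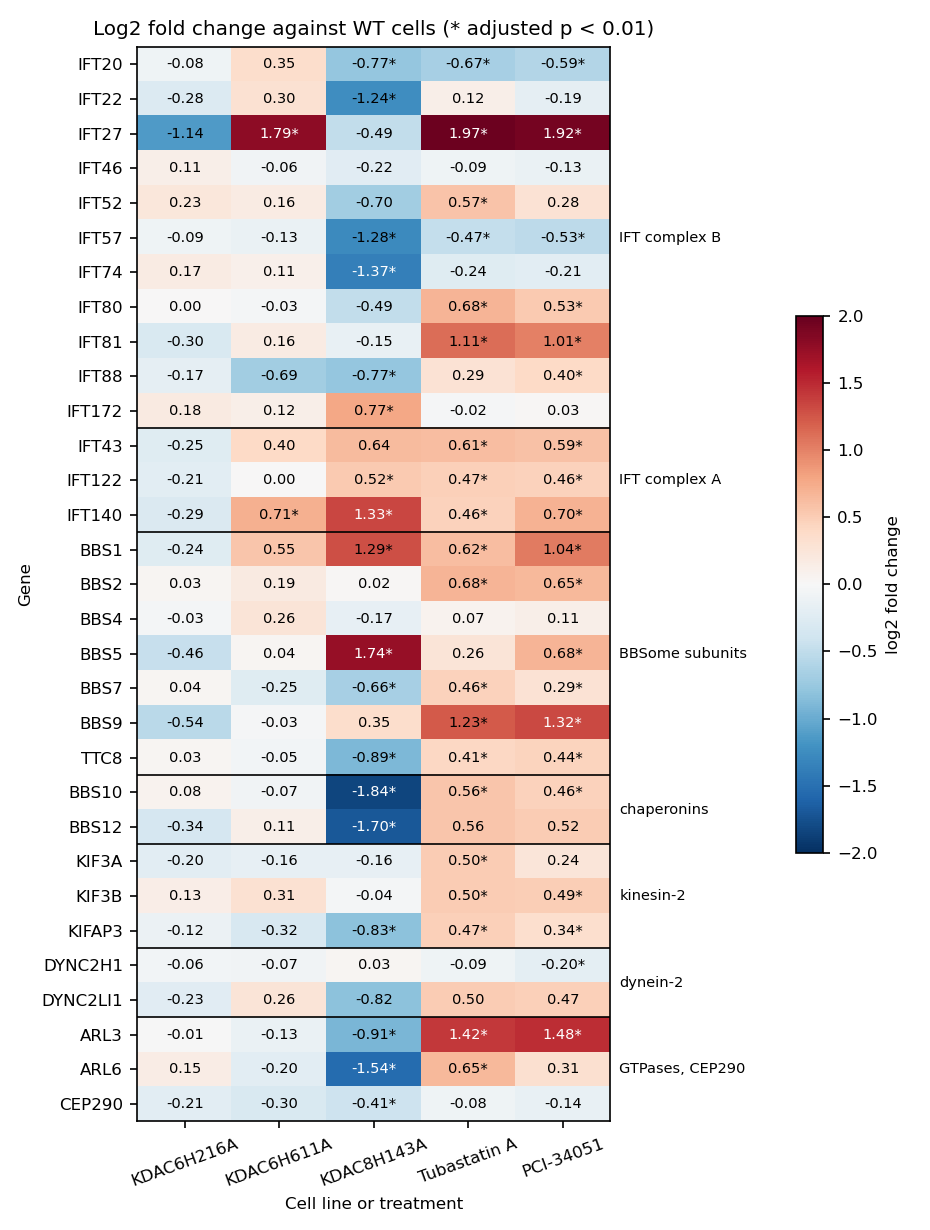
Log2 fold change against WT cells for each cilium transport gene (rows, by complex) in each mutant line and treatment (columns), with red for higher and blue for lower and a star for an adjusted p below 0.01. IFT27 is the only gene above 1.7 in 3 columns. In the KDAC8H143A column the GC and length correction turned the sign of IFT80, IFT81, IFT88, BBS7, KIF3A, KIFAP3 and CEP290. Only genes past the threshold with or without the correction were counted for this.

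The largest log2 fold change of any member against WT cells belonged to IFT27, the RAB-like GTPase of complex B that helps the BBSome leave the cilium. Its level in WT cells was 2.27, 1.62, 1.39 and 2.46 CPM. It was 6.19, 7.88, 5.97 and 5.93 CPM in KDAC6H611A, 8.49, 7.204 and 8.2 with Tubastatin A and 6.73, 8.26 and 7.91 with PCI-34051. Every library of these 3 groups lay above every WT library. CPM values were scaled over all 22 libraries and fold changes within each pair of groups, so the change can differ slightly from the ratio of the CPM values. The log2 fold change was 1.79 ± 0.26, edgeR adjusted p = 0.000397 in KDAC6H611A (± SE throughout), 1.97 ± 0.20 with Tubastatin A (edgeR adjusted p = 4.85e-08) and 1.92 ± 0.21 with PCI-34051 (edgeR adjusted p = 4.28e-07), or 3.45-, 3.91- and 3.79-fold. All 3 calls held whichever single library was left out. In the other direction, KDAC6H216A libraries held 1.499, 1.33, 0.579 and 0.2902 CPM, where 3 of the 4 lie under the WT range, and KDAC8H143A libraries 1.21 to 1.42 CPM. Neither passed the threshold (-1.14 and -0.49). On the annotation 955 of the 8009 exonic bases of IFT27 are shared with a lncRNA on the opposite strand that has no row in the table, and whether the counting used strand is not stated.

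Among the other complex B genes, IFT81 and IFT80 were higher and IFT20 and IFT57 lower with both inhibitors. IFT81, which with IFT74 forms the tubulin-binding module of the train, was at 10.3, 10.97, 10.2 and 8.82 CPM in WT cells, 25.2, 22.2 and 23.4 with Tubastatin A (1.11 ± 0.095, edgeR adjusted p = 4.86e-09) and 20.6, 21.9 and 22.6 with PCI-34051 (1.01 ± 0.099, edgeR adjusted p = 1.19e-07). IFT74 itself did not follow, at -0.24 and -0.21, neither past the threshold. IFT80, a subunit at the outer edge of the train, was at 30.8, 27.4, 29.6 and 29.6 CPM in WT cells and 49.8, 48.7 and 53.1 and 47.8, 44.4 and 42.98 with the inhibitors in the same order (0.68 ± 0.062, edgeR adjusted p = 1.51e-08, and 0.53 ± 0.068, edgeR adjusted p = 3.39e-06). In both genes the treated libraries were all above the highest WT library. IFT80 shares 1953 of 7080 exonic bases with a gene on the same strand, to which reads could also be assigned.

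IFT20, which also works at the Golgi to send proteins toward the cilium, fell in 3 of the 5 comparisons. It was at 33.7, 35.5, 28 and 34.5 CPM in WT cells, 18.1, 18.5, 19.3 and 18.5 in KDAC8H143A (-0.77 ± 0.11, edgeR adjusted p = 7.43e-05), 21.99, 22.3 and 22.8 with Tubastatin A (-0.67 ± 0.078, edgeR adjusted p = 3.76e-07) and 22.5, 23.1 and 24.6 with PCI-34051 (-0.59 ± 0.084, edgeR adjusted p = 1.05e-05). IFT57, a subunit of the peripheral part of complex B, went the same way, from 31.4, 35.4, 40.2 and 40.8 CPM in WT cells to 13.4, 13.2, 16.7 and 15.7 in KDAC8H143A (-1.28 ± 0.13, edgeR adjusted p = 6.19e-06), 29.4, 27.6 and 30.1 with Tubastatin A (-0.47 ± 0.072, edgeR adjusted p = 1.08e-05) and 28.96, 28.5 and 25.5 with PCI-34051 (-0.53 ± 0.076, edgeR adjusted p = 1.22e-05). For both genes all libraries of these 3 groups were below all WT libraries. With the total count only, 3 of these calls were lost, those of IFT57 with Tubastatin A (-0.12) and of IFT20 (-0.20) and IFT57 (-0.14) with PCI-34051, all below the all-gene medians of that scaling. In KDAC6H611A every library of IFT20 (37.5 to 48.96 CPM) was above WT cells without passing (0.35), and IFT57 (20.6 to 44.6 CPM in the KDAC6 lines) overlapped them. IFT20 shares 361 of 3227 exonic bases with TMEM97 on the opposite strand.

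The other 6 complex B genes changed in 1 or 2 comparisons or in none. IFT88, needed for cilium formation, was at 10.1, 11.2, 9.33 and 8.53 CPM in WT cells, 5.995, 6.76, 3.69 and 5.62 in KDAC8H143A (-0.77 ± 0.20, edgeR adjusted p = 0.0048) and 15.6, 13.2 and 12.8 with PCI-34051 (0.40 ± 0.12, edgeR adjusted p = 0.00826). Both calls were lost with the GC and length correction (0.15 and 0.27), and the adjusted p rose to 0.0101 to 0.0182 without WT replicate 1, 2 or 3 in KDAC8H143A and to 0.0107 to 0.0427 without WT replicate 1, 3 or 4 or PCI-34051 replicate 1. KDAC6H611A libraries (6.32, 6.54, 6.33 and 4.65 CPM) were all below WT cells without passing (-0.69 ± 0.18, edgeR adjusted p = 0.015). In KDAC8H143A alone IFT74 (-1.37 ± 0.19, edgeR adjusted p = 5.14e-05) and IFT22, a RAB-like GTPase (-1.24 ± 0.18, edgeR adjusted p = 8.49e-05), were lower and IFT172, the subunit at the tip turnaround (0.77 ± 0.14, edgeR adjusted p = 0.000491), was higher. The call of IFT74 was lost with the correction (-0.47), which instead made it lower with Tubastatin A (-0.43), and those of IFT22 (-1.19) and IFT172 (0.59) held. In KDAC8H143A IFT52, a core subunit, lay below every WT library and passed without WT replicate 4 or KDAC8H143A replicate 2 (-0.83 in either fit). It rose with Tubastatin A (0.57 ± 0.14, edgeR adjusted p = 0.00133) and was 0.28 with PCI-34051, and a test of the difference between the inhibitors did not pass (edgeR adjusted p = 0.122). IFT46, its partner in the core, passed nowhere and lay between -0.22 and 0.11 in the 5 comparisons. IFT22 shares 3887 of 6585 exonic bases with the lncRNA EMSLR on the opposite strand, which had at most 14 counts in a library.

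**Figure D5:**
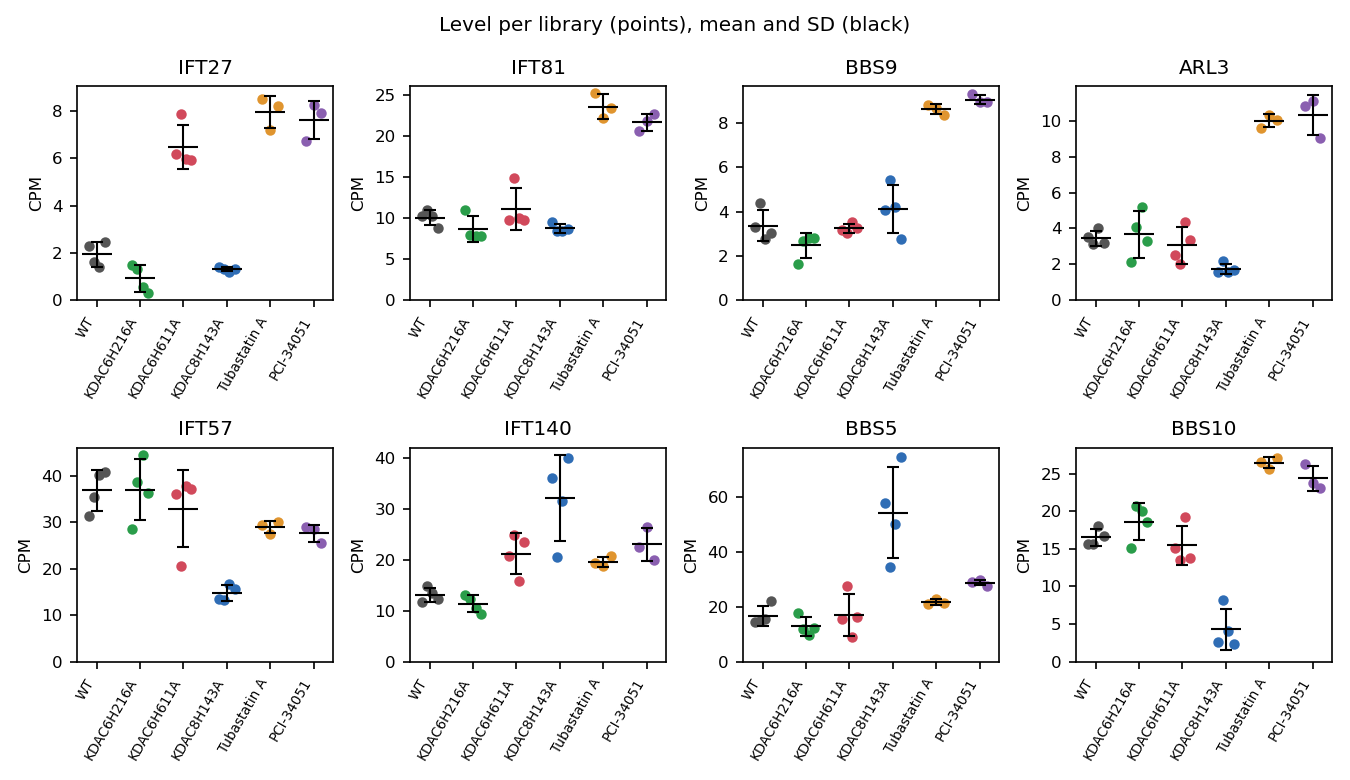
Level in CPM of 8 cilium transport genes in each of the 22 libraries (coloured points, by group), with the mean and SD of each group in black. IFT27 is higher in KDAC6H611A and both treated groups, IFT57 is lowest in KDAC8H143A, and the single KDAC8H143A library of BBS10 above 8 CPM is replicate 2.

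All 3 complex A genes were higher with both inhibitors. IFT140, a core subunit of this complex, passed in 4 of the 5 comparisons, more than any other member. It was at 11.8, 14.8, 13.5 and 12.4 CPM in WT cells, 20.8, 24.98, 15.8 and 23.5 in KDAC6H611A, 36.2, 20.6, 31.7 and 40.1 in KDAC8H143A, 19.4, 18.9 and 20.8 with Tubastatin A and 22.6, 26.5 and 20.1 with PCI-34051. Each of these libraries was above the highest WT library. The log2 fold changes were 0.71 ± 0.16, edgeR adjusted p = 0.00752 in KDAC6H611A, 1.33 ± 0.20, edgeR adjusted p = 9.27e-05 in KDAC8H143A, 0.46 ± 0.088, edgeR adjusted p = 0.000144 with Tubastatin A and 0.70 ± 0.11, edgeR adjusted p = 2.06e-05 with PCI-34051. In KDAC6H611A the call was lost with the correction (0.57, edgeR adjusted p = 0.0162) and without any 1 WT library or KDAC6H611A replicate 1 or 4 (0.0167 to 0.0294). In KDAC8H143A the correction lowered the value of IFT140 to 0.55 (edgeR adjusted p = 0.0026). It moved the changes of IFT57, BBS1 and BBS10 in that line to -0.65, 0.81 and -0.77 as well, all still past the threshold.

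IFT122 was at 16.3, 15.6, 15.4 and 17.8 CPM in WT cells, 24.5, 17.7, 20.4 and 27.5 in KDAC8H143A, 24.9, 24.2 and 23.7 with Tubastatin A and 23.2, 24.98 and 23.3 with PCI-34051. The treated libraries were all above WT cells (0.47 ± 0.079, edgeR adjusted p = 3.32e-05, and 0.46 ± 0.084, edgeR adjusted p = 0.000149). In KDAC8H143A the ranges overlapped by 1 library, and the call (0.52 ± 0.15, edgeR adjusted p = 0.0095) was lost with the correction (0.03) and in 7 of 8 fits that left out a library, in all but the one without KDAC8H143A replicate 2 (0.0179 to 0.0375). IFT43, the small subunit of the complex, was at 3.92, 5.49, 5.802 and 6.36 CPM in WT cells, 8.52, 9.05 and 9.68 with Tubastatin A (0.61 ± 0.14, edgeR adjusted p = 0.000728) and 8.98, 9.596 and 7.91 with PCI-34051 (0.59 ± 0.15, edgeR adjusted p = 0.00263). No treated library of IFT43 reached down to the WT range, and without KDAC8H143A replicate 2 it was also higher in that line (0.70).

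Of the 7 BBSome subunits, 5 were higher with Tubastatin A and 6 with PCI-34051, and none was lower. BBS9, a scaffold subunit of the BBSome, was at 3.304, 4.36, 2.77 and 3.04 CPM in WT cells, 8.81, 8.65 and 8.36 with Tubastatin A (1.23 ± 0.16, edgeR adjusted p = 1.48e-06) and 9.28, 8.93 and 8.93 with PCI-34051 (1.32 ± 0.16, edgeR adjusted p = 2.26e-06). BBS2 was at 23.1, 22.3, 24.97 and 22.1 CPM in WT cells and 38.5, 41.4 and 40.3 and 39.4, 41.5 and 35.9 in the same order of treatment (0.68 ± 0.066, edgeR adjusted p = 3.41e-08, and 0.65 ± 0.072, edgeR adjusted p = 5.62e-07). For both genes the treated libraries lay close together and well above WT cells. BBS7 was at 15.5, 18.3, 18.3 and 18.6 CPM in WT cells, 12.2, 11.8, 10.7 and 8.64 in KDAC8H143A (-0.66 ± 0.14, edgeR adjusted p = 0.00125), 24.8, 27.9 and 26.9 with Tubastatin A (0.46 ± 0.077, edgeR adjusted p = 3.29e-05) and 22.8, 24.3 and 22.6 with PCI-34051 (0.29 ± 0.08, edgeR adjusted p = 0.00469). TTC8, also called BBS8, was at 8.47, 10.8, 9.21 and 9.69 CPM in WT cells, 3.997, 6.52, 4.47 and 4.73 in KDAC8H143A (-0.89 ± 0.19, edgeR adjusted p = 0.0011), 13.5, 13.7 and 14.5 with Tubastatin A (0.41 ± 0.10, edgeR adjusted p = 0.00133) and 13.02, 15.7 and 13.2 with PCI-34051 (0.44 ± 0.12, edgeR adjusted p = 0.0033). BBS7 and TTC8 thus stood below WT cells in the KDAC8 mutant and above them with the inhibitors, with no overlap.

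Several of these calls depended on the processing. The correction ended the call in KDAC8H143A for BBS7 (0.32) and TTC8 (-0.29), that of BBS7 with PCI-34051 (0.15) and that of TTC8 with Tubastatin A (0.30), and it lowered BBS7 with Tubastatin A to 0.27. With PCI-34051 the adjusted p of BBS7 was 0.0103 to 0.0163 without WT replicate 1, 2 or 3 or PCI-34051 replicate 1 or 2, and that of TTC8 0.0143 and 0.0153 without WT replicate 3 or PCI-34051 replicate 2. BBS4, an adaptor subunit, passed in no comparison (-0.17 to 0.26).

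BBS1, which holds the BBSome on membranes through ARL6, was at 9.09, 5.98, 9.46 and 10.1 CPM in WT cells, 22.2, 15.4, 20.1 and 23.7 in KDAC8H143A (1.29 ± 0.19, edgeR adjusted p = 0.00011), 15.8, 12.7 and 14.1 with Tubastatin A (0.62 ± 0.14, edgeR adjusted p = 0.000642) and 18.6, 18.3 and 19.8 with PCI-34051 (1.04 ± 0.13, edgeR adjusted p = 2.51e-06). BBS5, a subunit with lipid-binding domains, was at 14.5, 14.8, 15.4 and 22.3 CPM in WT cells, 57.7, 34.6, 49.9 and 74.7 in KDAC8H143A (1.74 ± 0.23, edgeR adjusted p = 4.11e-05), 20.96, 22.8 and 21.4 with Tubastatin A (0.26 ± 0.11, edgeR adjusted p = 0.0363) and 29.1, 29.6 and 27.7 with PCI-34051 (0.68 ± 0.11, edgeR adjusted p = 2.97e-05). The KDAC8H143A values of BBS5 did not meet the WT range at any library and were 3.35-fold higher, with 1.70 after the correction. Without WT replicate 4, the highest WT library, BBS5 was also past the threshold with Tubastatin A (0.44, edgeR adjusted p = 0.000365). BBS1 shares 3311 of 6131 exonic bases with a gene on the same strand, and BBS5 998 of 4254.

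Set against each other, the inhibitors differed past the threshold in these 2 genes and in no other member. Doses differed (1 and 5 µM), so the test compares these 2 treatments and not the compounds at a matched dose. BBS1 was -0.43 ± 0.088, edgeR adjusted p = 0.00476 and BBS5 -0.42 ± 0.061, edgeR adjusted p = 0.000349 with Tubastatin A relative to PCI-34051, with no overlap between the groups, beside 3.45% of 18409 genes higher and 2.2% lower. For BBS1 the adjusted p was 0.0136 to 0.0325 without Tubastatin A replicate 2 or 3 or PCI-34051 replicate 1 or 3. For other members with large responses the interval of the difference was narrow: the 95% interval was -0.19 to 0.28 for IFT27, -0.26 to 0.14 for ARL3 and -0.28 to 0.11 for BBS9, on the log2 scale.

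BBS10 and BBS12 encode chaperonin-like proteins that assemble the BBSome, and they had 2 of the 3 largest changes in KDAC8H143A. BBS10 was at 15.7, 15.7, 18.04 and 16.8 CPM in WT cells and 2.67, 8.21, 4.05 and 2.36 in KDAC8H143A (-1.84 ± 0.32, edgeR adjusted p = 0.000287), a level 3.58-fold lower. With the inhibitors it was at 26.6, 25.7 and 27.1 and 26.3, 23.8 and 23.1 CPM (0.56 ± 0.075, edgeR adjusted p = 2.2e-06, and 0.46 ± 0.085, edgeR adjusted p = 0.000172). BBS12 was at 2.69, 3.37, 3.405 and 2.46 CPM in WT cells and 0.666, 1.69, 0.497 and 0.489 in KDAC8H143A (-1.70 ± 0.40, edgeR adjusted p = 0.00242). In both genes KDAC8H143A replicate 2 was the highest library of its group and still below WT cells. With the inhibitors BBS12 was 0.56 and 0.52, above the WT libraries in all 6 but not past the threshold (edgeR adjusted p = 0.0121 and 0.038). After the correction BBS10 was 0.33 and 0.28 with the inhibitors and was lower in KDAC8H143A (-0.77, edgeR adjusted p = 0.0063), and BBS12 did not pass (-0.94, edgeR adjusted p = 0.0288).

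All 3 kinesin-2 subunits were higher with Tubastatin A and 2 of them with PCI-34051. KIF3B was at 40.1, 46.4, 52.5 and 46.5 CPM in WT cells, 73.5, 69.8 and 71.6 with Tubastatin A (0.50 ± 0.055, edgeR adjusted p = 1.63e-07) and 71.2, 71.8 and 67.2 with PCI-34051 (0.49 ± 0.062, edgeR adjusted p = 2.97e-06). KIFAP3, the subunit that links the motor to cargo, was at 13.6, 13.6, 15.4 and 12.7 CPM in WT cells, 9.41, 8.16, 6.18 and 6.36 in KDAC8H143A (-0.83 ± 0.17, edgeR adjusted p = 0.0009), 20.04, 21.9 and 20.4 with Tubastatin A (0.47 ± 0.086, edgeR adjusted p = 7.84e-05) and 19.1, 20.3 and 16.8 with PCI-34051 (0.34 ± 0.099, edgeR adjusted p = 0.00669). The groups named did not overlap WT cells in either gene. KIF3A, the partner motor chain, was 0.50 ± 0.086 with Tubastatin A (edgeR adjusted p = 4.42e-05) and 0.24 ± 0.11 with PCI-34051 (edgeR adjusted p = 0.0765). Without PCI-34051 replicate 2 KIF3A passed there too (0.35), and the correction lowered it to 0.29 with Tubastatin A and turned it to 0.83 in KDAC8H143A. The correction ended the calls of KIFAP3 in KDAC8H143A (0.05) and with PCI-34051 (0.24), where it was also at 0.0112 to 0.0298 without WT replicate 1, 2 or 4 or PCI-34051 replicate 1 or 2.

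Of the 2 dynein-2 chains, DYNC2H1 passed in 1 of the 5 comparisons and DYNC2LI1 in none. DYNC2H1 ran from 138 to 153 CPM in WT cells and 117 to 161 in the other 18 libraries. Its 1 call was a small fall with PCI-34051 (-0.20 ± 0.059, edgeR adjusted p = 0.00725) with overlapping ranges, which became a rise of 0.19 with the total count only and had an adjusted p of 0.0115 to 0.051 without WT replicate 1, 2 or 3 or PCI-34051 replicate 1 or 3. With the correction DYNC2H1 was lower with Tubastatin A (-0.31) and PCI-34051 (-0.39) and higher in KDAC8H143A (0.82). DYNC2LI1, the light intermediate chain, lay between -0.82 and 0.50, and all 6 treated libraries (5.78 to 7.74 CPM) were above WT cells (3.04 to 5.17). It passed without Tubastatin A replicate 1 (0.62) and, in the other direction, without KDAC8H143A replicate 1 (-1.06).

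ARL3, the GTPase that releases lipid-anchored cargo inside the cilium, was the second strongest response to the inhibitors. It was at 3.51, 3.12, 4.04 and 3.18 CPM in WT cells, 9.61, 10.3 and 10.1 with Tubastatin A (1.42 ± 0.14, edgeR adjusted p = 5.91e-08) and 10.8, 11.1 and 9.04 with PCI-34051 (1.48 ± 0.16, edgeR adjusted p = 3.36e-07), 2.67- and 2.79-fold higher. In KDAC8H143A it was at 1.58, 2.17, 1.56 and 1.71 CPM (-0.91 ± 0.24, edgeR adjusted p = 0.00484). ARL3 thus stood above WT cells in every treated library and below them in every KDAC8H143A library. The fall in KDAC8H143A was not past the threshold with the correction (-0.77, edgeR adjusted p = 0.0115) or without WT replicate 1, 3 or 4 or KDAC8H143A replicate 1 or 3 (0.0104 to 0.0213). ARL6, the GTPase that recruits the BBSome to membranes, was at 5.37, 5.11, 7.44 and 6.79 CPM in WT cells, 1.17, 3.87, 1.07 and 1.79 in KDAC8H143A (-1.54 ± 0.37, edgeR adjusted p = 0.00275) and 10.2, 10.5 and 10.99 with Tubastatin A (0.65 ± 0.13, edgeR adjusted p = 0.000243). With PCI-34051 ARL6 was 0.31 and did not pass (edgeR adjusted p = 0.0797). Its fall was lost with the correction (-0.59) and, narrowly, without WT replicate 3 (0.0105). CEP290, a gatekeeper of the transition zone at the base of the cilium, was lower in KDAC8H143A (-0.41 ± 0.11, edgeR adjusted p = 0.0067), a direction that turned with the correction (0.49, edgeR adjusted p = 0.0221) and a call that was lost without WT replicate 1, 2, 3 or 4 or KDAC8H143A replicate 3 (0.0117 to 0.0178). With the inhibitors CEP290 was -0.08 and -0.14, and the correction put it past the threshold in both (-0.38 and -0.40).

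The 2 KDAC6 lines were also compared directly. IFT27 was 2.90 ± 0.45, edgeR adjusted p = 0.00166 and IFT140 0.98 ± 0.20, edgeR adjusted p = 0.00782 in KDAC6H611A relative to KDAC6H216A, and none was lower, beside 4.61% of 14961 genes higher and 5.31% lower. For both genes every KDAC6H611A library was above every KDAC6H216A library. IFT27 held whichever library was left out. IFT140 was lost with the correction (0.85, edgeR adjusted p = 0.0133), and its adjusted p was 0.0163 to 0.0296 without KDAC6H216A replicate 2, 3 or 4 or KDAC6H611A replicate 1, 2 or 4. Without the libraries with little mitochondrial rRNA (KDAC6H216A replicate 1 and KDAC6H611A replicate 4), a choice made after the data were seen, IFT27 was 3.32 and IFT140 1.06, both past the threshold, and IFT20 was past it as well (0.75), beside 6.66% of genes higher and 7.19% lower. HDAC6 RNA also differed between the lines, and was higher in KDAC6H611A (1.13 ± 0.18, edgeR adjusted p = 0.00187, and 1.04 after the correction). That call held in 7 of 8 fits that left out a library. The part of this difference in the members' values was not tested.

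RFX transcription factors are known to bind paired half-sites, the X-box, in promoters of ciliary genes, so the letters of these promoters were searched. RefSeq windows from 250 bases before to 50 after the gene start (GRCh38.p14) were at hand for 29 of the 31 genes, all but BBS9 and IFT22. The half-site GTTGCC, on either strand, occurred in 13 of the 29 (44.8%) against 14.6% of all 27305 gene symbols with such a window, a gene with several windows counting once if any of them held the letters. The half-site followed after any pair of bases by GG, which overlaps the first search, occurred in 7 of 29 (24.1%) against 2.91%. The full X-box, GTTNCC joined by AT to GGNAAC, was in none of the 29 and in 0.168% of symbols, and a looser form, GTNNCC and GGNAAC with any pair of bases between, was in 2 (IFT57 and ARL6, 6.9%) against 1.79%. These 4 spellings were chosen after matches had been seen. The symbols set beside the members were not matched to them in gene type, base composition or number of windows. The following stretches, 60 bases each 5′ to 3′ on the strand of the gene, show the half-site in capitals (GTTGCC, or GGCAAC where it lies on the opposite strand) in 5 genes where no annotated exon overlaps the stretch.
ARL6: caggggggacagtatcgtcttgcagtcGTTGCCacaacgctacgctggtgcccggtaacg
BBS10: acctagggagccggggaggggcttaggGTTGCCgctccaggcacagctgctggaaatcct
DYNC2H1: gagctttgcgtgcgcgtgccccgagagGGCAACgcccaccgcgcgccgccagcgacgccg
DYNC2LI1: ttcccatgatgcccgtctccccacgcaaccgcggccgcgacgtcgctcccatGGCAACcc
IFT46: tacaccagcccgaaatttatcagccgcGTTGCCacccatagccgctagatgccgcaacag

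They lie at chr3:97764340-97764399 (plus strand) for ARL6, chr12:76348604-76348663 (minus) for BBS10, chr11:103109348-103109407 (plus) for DYNC2H1, chr2:43773979-43774038 (plus) for DYNC2LI1 and chr11:118566095-118566154 (minus) for IFT46. The half-site starts 154, 221, 51, 8 and 196 bases before the gene start in that order. With Tubastatin A the log2 fold changes of these genes, in the same order, were 0.65, 0.56, -0.09, 0.50 and -0.09, of which the first pair passed. Of the other 8 members with the half-site, IFT27, IFT81, IFT122, BBS1 and TTC8 were higher as well, and IFT74, IFT88 and BBS5 did not pass. Among the genes with a window but no half-site, IFT43, IFT52, IFT80, IFT140, BBS2, BBS7, KIF3A, KIF3B, KIFAP3 and ARL3 were also higher. Of the same genes IFT20 and IFT57 were lower, and IFT172, BBS4, BBS12 and CEP290 did not pass. Genes with and without these letters were not compared by a test. RFX3, a factor of this family, was at 9.91, 11.2, 9.71 and 9.69 CPM in WT cells, 23.5, 26.4 and 23.4 with Tubastatin A (1.16 ± 0.092, edgeR adjusted p = 2.06e-09) and 24.5, 23.2 and 23.7 with PCI-34051 (1.13 ± 0.092, edgeR adjusted p = 1.14e-08). RFX1 rose as well (0.64 ± 0.092, edgeR adjusted p = 5.14e-06, and 0.81 ± 0.088, edgeR adjusted p = 4.61e-07). In KDAC8H143A RFX1 was at 20.1 to 32.1 CPM, also above the 12.5 to 13.7 CPM of WT cells. In the list of 13 cilium transcription factors, 3 of the 9 tested were higher and 1 lower with Tubastatin A, and 3 higher and 2 lower with PCI-34051. Of 18 motile cilium markers 13 were too low to test with either inhibitor, 1 was higher with Tubastatin A (DNAH5) and 2 with PCI-34051 (DNAH5 and CAPS), and the list summed to 29.9 to 34.8 CPM there against 20.9 to 27.6 in WT cells, where 7 were at 0 in every library.

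The other lists are read against the same shares of all genes (29.3% higher and 28.6% lower with Tubastatin A, 25.5% and 25.6% with PCI-34051, 31.6% and 26.9% in KDAC8H143A). Of 18 other transport subunits, 6 of the 16 tested were higher and 2 lower with Tubastatin A, 3 higher and 3 lower with PCI-34051, and 2 higher and 10 lower of 17 in KDAC8H143A. The GC and length correction turned the balance with Tubastatin A to 1 higher and 4 lower, left that with PCI-34051 at 3 and 3, and gave 3 higher and 4 lower in KDAC8H143A. TTC30A, a complex B subunit, was higher with both inhibitors (1.29 ± 0.12, edgeR adjusted p = 1.5e-08, and 1.26 ± 0.15, edgeR adjusted p = 1.39e-06), and TULP3, an adaptor that brings receptors to complex A, was lower (-0.64 ± 0.088, edgeR adjusted p = 3.47e-06, and -0.58 ± 0.094, edgeR adjusted p = 3.84e-05). WDR60, a dynein-2 intermediate chain, was higher in KDAC8H143A (1.72 ± 0.17, edgeR adjusted p = 7e-06), where BBIP1 (-1.58, and -0.69 after the correction) and LZTFL1 (-1.40 and -0.54), a subunit and a regulator of the BBSome, were lower. WDR60 also rose in KDAC6H611A (1.07) and with PCI-34051 (0.54), in 2 of 8 and 2 of 7 fits that left out a library. WDR34, another dynein-2 chain, was lower with Tubastatin A (-0.51 ± 0.063, edgeR adjusted p = 8.87e-07). TTC21B, a complex A subunit, was lower in KDAC6H611A (-0.77 ± 0.13, edgeR adjusted p = 0.00132). Of 18 basal body and initiation genes 3 were higher and 11 lower with Tubastatin A and 3 and 10 with PCI-34051, led by CEP135 (-1.08 and -0.97), EHD1 (-1.07 and -1.15) and CEP164 (-0.89 and -0.82), which build the centriole, the ciliary vesicle and the distal appendages. The correction left these counts as they were. Of 25 transition zone genes tested, 5 were higher and 6 lower with Tubastatin A, 6 and 5 with PCI-34051 and 4 and 8 in KDAC8H143A, and after the correction 3 and 8, 5 and 7, and 6 and 7. With each inhibitor the counts before the correction come to no more than the all-gene shares in either direction. TMEM67, a membrane protein of the transition zone, was higher with both inhibitors (0.98 and 1.08). SDCCAG8, of the same list, was lower with both (-0.94 ± 0.063, edgeR adjusted p = 1.77e-10, and -0.95 ± 0.062, edgeR adjusted p = 6.97e-10).

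Of 16 genes grouped here by name under cilium disassembly and suppression, 2 were higher and 8 lower with PCI-34051. With Tubastatin A 4 were higher and 5 lower, close to the shares of all genes. The direction in which each gene of this list acts on the cilium was not tested. AURKA, the kinase that triggers disassembly, was lower with both (-0.57 ± 0.054, edgeR adjusted p = 2.29e-08, and -0.61 ± 0.07, edgeR adjusted p = 8.09e-07) and in KDAC8H143A (-1.28 ± 0.11, edgeR adjusted p = 3.01e-06). With both inhibitors PLK4, KIF24, TCHP and NDE1 were lower and NEK1 and KDM3A higher. With Tubastatin A KIF2A (0.19) and TRIM32 (0.19) were also higher, past the threshold in 4 and 3 of 7 fits that left out a library and in neither case with DESeq2, and KIF2A did not hold with the correction (-0.06) either. With PCI-34051 PLK1 (-0.32), NEK2 (-0.40) and CCP110 (-0.24) were lower, NEK2 and CCP110 in 4 and 5 of 7 such fits. KDAC8H143A had 3 higher (PLK1, OFD1 and TCHP) and 9 lower, or 2 and 6 with the correction, which ended the calls of PLK1 (from 0.58 to 0.06), PLK4, KIF2A, CCP110 and NEK1. OFD1 passed in 1 of 8 fits that left out a library and not with DESeq2. CEP97 (-1.503 ± 0.19, edgeR adjusted p = 3.38e-05, and -0.62 after the correction) had the largest change there. NEK2 (-1.16), KIF24 (-0.42) and TRIM32 (-0.55) were also lower in KDAC8H143A, KIF24 and TRIM32 in 4 and 7 of 8 such fits. In KDAC6H611A PLK4 was lower (-0.59 ± 0.12, edgeR adjusted p = 0.00457), in 3 of 8 fits that left out a library. Relative to KDAC6H216A, AURKA (-0.66) and PLK4 (-0.74) were lower in KDAC6H611A, in 1 and 6 of 8 such fits. PLK1 was higher with Tubastatin A than with PCI-34051 (0.26), in 4 of 6 such fits. Of 13 genes of the ciliary cargo GTPase cycle, 3 were higher and 3 lower with each inhibitor, RAB23 rising most (1.26 ± 0.07, edgeR adjusted p = 8.83e-12, and 1.03 ± 0.083, edgeR adjusted p = 1.05e-08), and 1 was higher and 8 lower in KDAC8H143A. UNC119 was among those lower with both inhibitors (-0.61 and -0.54).

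Most proliferation genes were lower with both inhibitors and in KDAC8H143A. Of 16, 0 were higher and 12 lower with Tubastatin A, 0 and 13 with PCI-34051, 1 and 10 in KDAC8H143A, 0 and 4 in KDAC6H611A (6.24% of all genes lower) and 0 and 0 in KDAC6H216A. Their summed level was 2118 to 2288 CPM in WT cells, 1772 to 1840 with Tubastatin A, 1450 to 1618 with PCI-34051 and 1529 to 1864 in KDAC8H143A, and their part in the cilium transport genes' values was not tested. In the hedgehog pathway, whose receptors signal from the cilium, HHIP, which binds the ligand, was lower in KDAC6H611A (-2.49 ± 0.11, edgeR adjusted p = 4.94e-08), in KDAC8H143A (-2.08 ± 0.14, edgeR adjusted p = 6.4e-07) and with both inhibitors (-1.12 ± 0.045, edgeR adjusted p = 9.03e-14, and -1.12 ± 0.055, edgeR adjusted p = 1.87e-11). CDON, a co-receptor, was higher with both (1.95 ± 0.13, edgeR adjusted p = 1.47e-10, and 1.52 ± 0.15, edgeR adjusted p = 1.84e-07). Of the list of 17, 3 were higher and 2 lower of 13 tested with Tubastatin A, 3 and 5 of 14 with PCI-34051 and 7 and 2 of 14 in KDAC8H143A, a balance that the correction brought to 3 and 3. In that line GLI1 (2.37) and PTCH1 (1.70) were higher, while HHIP was lower. GLI1 rested on at most 4 counts per WT library (mean 0.286 CPM). It was no longer past the threshold after the correction (1.81, edgeR adjusted p = 0.013).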

How the data were processed

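RNA of HT1080 cells was sequenced after rRNA depletion. The authors trimmed reads with Trimmomatic 0.39, aligned them with Bowtie2 2.4.5 and deposited expected counts per gene from RSEM 1.3.3, and used DESeq2 1.38.2 for their own tests. The annotation release and strand setting are not given in the sources used here. The rule for the members uses names only, but the members and gene lists were chosen with earlier results of these data known.

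The expected counts as deposited (10.6% to 13.5% of all values of a library, 0 included, not whole) were rounded and tested with edgeR 4.0.16 (quasi-likelihood, TMM, filterByExpr, 2 groups per fit, Benjamini-Hochberg over all genes tested, adjusted p below 0.01) in 7 comparisons. The CPM values used TMM factors over all 22 libraries, so a fold change can differ from their ratio. A 95% interval is the log2 fold change ± 1.96 SE. Lengths, GC content and exon overlaps came from GENCODE 44 (GRCh38), which held all 31 genes, and promoters from RefSeq. Alternatives were DESeq2 1.42.0, upper quartile or total count scaling, other filters and thresholds, a GC and length offset (mgcv 1.9.3), all groups in one fit, a replicate block and each library left out. Scripts were tested on simulated counts. The replicate libraries are stated to be biological, and no 2 of a group agreed within sampling noise (lowest chi-square per degree of freedom 2.85).

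Values in every library are given for members past the threshold in at least 2 of the 5 comparisons with WT cells and for the 3 largest changes per comparison. HDAC6, HDAC8 and the disassembly genes that passed are named, and from any other list at most 3 genes per comparison. The lists were other transport subunits, transition zone, ciliary cargo GTPase cycle, disassembly and suppression, basal body and initiation, hedgehog pathway, cilium transcription factors, proliferation, and motile cilium, fibroblastic, epithelial and immune markers.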

Additional observations from a re-analysis of the deposited data

Results flagged for a closer look

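In 16 of 124 sets of 4 libraries (1 gene in 1 group) 1 library stood apart by Dixon's criterion, which chance gives in about 5% of sets. KDAC6H216A replicate 1 and KDAC6H611A replicate 2 held 8 of them. Their mitochondrial rRNA took 0.195% and 37.98% of counts, against 13.1% to 15.1% and 0.173% to 24.5% in the rest of their groups. KDAC6H611A replicate 4, at 0.173%, held 1. In KDAC6H216A replicate 1 IFT20 was at 47.97 CPM (26.5 to 28.3 in the others), IFT81 at 10.99 (7.81 to 8.01), BBS9 at 1.62 (2.67 to 2.81) and DYNC2LI1 at 3.12 (4.31 to 4.55). In KDAC6H611A replicate 2 IFT20 was at 49.0 CPM (37.5 to 39.3), IFT27 at 7.88 (5.93 to 6.19), IFT57 at 20.6 (36.2 to 37.9) and IFT81 at 14.9 (9.75 to 10.1). The part of rRNA content in these values was not tested.

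The other 8 were spread over groups. In WT cells BBS5 was at 22.3 CPM and DYNC2LI1 at 3.04 in replicate 4 and BBS7 at 15.5 in replicate 1. IFT88 was at 4.65 CPM in KDAC6H611A replicate 4. In KDAC8H143A IFT81 was at 9.58 CPM in replicate 1, BBS2 at 20.5 in replicate 3, and BBS4 at 9.71 and BBS12 at 1.69 in replicate 2.

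Among the members the direct comparisons gave 4 differences between groups. Tubastatin A was below PCI-34051 in BBS1 (log2 difference -0.43) and BBS5 (-0.42), at doses of 1 and 5 µM. KDAC6H611A was above KDAC6H216A in IFT27 (2.90) and IFT140 (0.98).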

How the results depend on the processing

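Of 1236 repeats of the 64 member calls under an alternative, 1052 had the same direction and passed, 175 kept the direction without passing and 9 turned. A result that passed in neither fit was counted as unchanged. In KDAC8H143A, the GC and length correction, without and with the replicate block, turned IFT80 to 0.46 and 0.45, IFT81 to 0.73 and 0.71, IFT88 to 0.15 and 0.13, BBS7 to 0.32 and 0.31, KIF3A to 0.83 and 0.80, KIFAP3 to 0.051 and 0.035 and CEP290 to 0.49 and 0.45, and HDAC6 to -0.51 without the block. With total count only, IFT172 (0.33), DYNC2H1 (0.27) and CEP290 (0.27) turned with Tubastatin A and DYNC2H1 (0.19) and CEP290 (0.25) with PCI-34051, where all genes shifted upward. The count of members called in KDAC6H611A was 1 with a log2 fold change of at least 1 (3.21% of all genes higher and 1.81% lower) and with total count only (3.73% and 2.47%). It was also 1 with the correction, without (6.23% and 6.8%) or with the block (4.48% and 4.97%). In KDAC8H143A it was 9 with a log2 fold change of at least 1 and 11 with total count only, with Tubastatin A 4 and with PCI-34051 5 at that fold change, and with PCI-34051 11 in a fit of all 6 groups. At that fold change 20.7% of all genes were higher and 13.2% lower in KDAC8H143A. With Tubastatin A these shares were 7.39% and 7.49%, and with PCI-34051 6.79% and 6.44%. Between the inhibitors the count of members called was 4 at an adjusted p below 0.05 (7.7% of all genes higher and 5.68% lower). It was 0 at a log2 fold change of at least 1 (0.136% and 0.0489%). It was also 0 in a fit of all 6 groups, which called only 7 of 18480 genes higher and 0 lower. In the edgeR fit of 2 groups 10 members had an unadjusted p below 0.05, and DESeq2 called 2 (4.61% of all genes higher and 3.05% lower). Between the KDAC6 lines the count was 5 at an adjusted p below 0.05 (9.57% of all genes higher and 11.2% lower) and 4 with all 6 groups (7.56% and 10.7%). It was 1 with a log2 fold change of at least 1 (3.44% and 1.97%) and with total count only (2.51% and 2.71%). At least 10 counts in every library also gave 1 (3.72% and 5.04%), as did the correction without (5.02% and 5.76%) or with the block (2.64% and 2.65%). Leaving out 1 library gave 0 to 5 calls in KDAC6H216A, 1 to 5 in KDAC6H611A, 13 to 21 in KDAC8H143A, 20 to 21 with Tubastatin A, 16 to 19 with PCI-34051, 1 to 2 between the inhibitors and 1 to 3 between the KDAC6 lines. Over those fits 0.0538% to 12.2% of all genes were higher and 0.135% to 13.8% lower in KDAC6H216A. In KDAC6H611A these shares were 3.63% to 9.58% and 3.83% to 9.83%, and in KDAC8H143A 26.1% to 32.7% and 22.2% to 32.5%. They were 24.7% to 27.5% and 23.7% to 26.3% with Tubastatin A and 20.7% to 24.1% and 20.9% to 23.8% with PCI-34051. Between the inhibitors they were 1.37% to 3.67% and 0.707% to 2.47%, and between the KDAC6 lines 2.46% to 9.8% and 2.6% to 9.68%. Apart from the construction of each alternative, the cause was not tested.

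The replicate numbers were not taken as a pairing, since same-numbered libraries deviated together at most weakly in at least 1 pair of every comparison (correlations of -0.349 to 0.550 over all pairs). In KDAC6H216A against WT all 4 were above 0 (0.336, 0.094, 0.264 and 0.017). With the replicate block 0 members were higher and 0 lower in KDAC6H216A, 2 and 0 in KDAC6H611A, 5 and 13 in KDAC8H143A, 18 and 2 with Tubastatin A, 14 and 3 with PCI-34051, 0 and 2 between the inhibitors and 2 and 0 between the KDAC6 lines. Of all genes 0.11% were higher and 0.345% lower in KDAC6H216A, 5.12% and 5.47% in KDAC6H611A and 30.5% and 26.6% in KDAC8H143A. With Tubastatin A the shares were 25.7% and 24.9%, and with PCI-34051 23.2% and 23.3%. The block called 2.6% and 1.56% of all genes between the inhibitors and 3.03% and 3.19% between the KDAC6 lines. It ended the calls of HDAC6 in KDAC6H216A (edgeR adjusted p = 0.0193), ARL3 in KDAC8H143A (0.0152), IFT52 with Tubastatin A (0.0148) and IFT88 (0.0447), BBS7 (0.0103) and KIFAP3 (0.0379) with PCI-34051, and those of KRT18 with PCI-34051 and KIF2A with Tubastatin A, and it put IFT52 in KDAC8H143A (0.00844) and BBS5 with Tubastatin A (0.001) past the threshold. Depth limits the lowest genes most, since IFT27 rested on 11 to 17 counts per WT library.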
